A study of Mus musculus with 12 samples.

Results

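The comparison described here is between the 3 libraries of Kit- K5+ cells and the 3 libraries of Kit- K5- cells, 6 of the 12 libraries of the study, and it covers every gene in the count table. The cells were taken from the submandibular gland, a major salivary gland, of mouse embryos at embryonic day 15 that carried the transgene Tg(KRT5-Venus)1Sgkd, in which the fluorescent protein Venus is the reporter of keratin 5. All 12 libraries share that transgene and a sort for surface E-cadherin, the adhesion protein of epithelial cells. The gates then divided the cells by surface Kit, a receptor tyrosine kinase, and by Venus (K5+ or K5-), which gave 4 populations with 3 libraries each. Both groups compared here lie outside the Kit gate, so they differ in Venus. How many embryos or litters stand behind a library is a detail not given in the sources used. The labels do not say that replicates came from separate animals, so p-values measure only the spread between these libraries, which may be technical.

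At this stage the gland is a branching epithelium of end buds and ducts set in mesenchyme, with a capillary bed and a parasympathetic ganglion beside it. Its outer epithelial cells touch the basement membrane through integrin α6β4 and laminin-332, and they carry keratins 5 and 14 and the transcription factor p63, while inner cells lie on the duct lumen. Mesenchyme cells secrete fibrillar collagens and growth factors such as FGF10. Red blood cells, macrophages, endothelial cells, neurons and Schwann cells travel through or settle in the gland alongside them.

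Library sizes were 7937974, 8478609 and 5589037 counts for Kit- K5+ and 13724364, 11817137 and 9052795 counts for Kit- K5- (replicates 1, 2 and 3, the order used throughout). Levels are given as CPM, a depth-scaled read count, after TMM scaling in edgeR. Mitochondrially encoded genes took 24.2, 30.6 and 29.1% of counts in Kit- K5+ libraries and 5.59, 9.4 and 12.2% in Kit- K5- libraries, ranges that do not overlap. With those genes left out, 1287 genes were higher and 1518 lower in Kit- K5+, close to the counts with them. Correlations of log2 CPM were 0.892 to 0.91 among Kit- K5+ libraries and 0.942 to 0.956 among Kit- K5- libraries, against 0.795 to 0.861 between the groups. The mouse's own keratin 5 gene, as distinct from the Venus transgene, was low in all 6 libraries. Krt5, the keratin 5 gene (chromosome 15, 101707070 to 101712898 on the minus strand of GRCm38, GENCODE M21), stood at 22.9, 13.5 and 20.3 CPM in the Kit- K5+ libraries and 0.853, 4.6 and 7.15 CPM in the Kit- K5- libraries. The groups did not overlap, and the log2 difference was 2.18 ± 0.85 (SE), with an adjusted p of 0.0964 that did not pass 0.05. Fitting the run of library numbers as a replicate block gave 2.77 and an adjusted p of 0.0142. Kit, the second gate, stood at 15.3, 26.4 and 25.6 CPM in the Kit- K5+ libraries and 10.03, 20.4 and 13.7 CPM in the Kit- K5- libraries, where the ranges overlapped, against 283 to 445 CPM in the 6 Kit+ libraries. Its log2 difference was 0.61 (adjusted p = 0.167), and -1.10 (adjusted p = 0.0163) per epithelial count, the second scale defined below, where the adjusted p reached 0.15 with 1 library left out.

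The label calls all sorted cells epithelial, and the markers of the 2 groups differed on that point. The summed level of 18 genes of epithelium in general (such as Epcam, Cdh1, Grhl2 and Esrp1) was 1677 to 1990 CPM in Kit- K5+ libraries and 529 to 642 CPM in Kit- K5- libraries. For 16 genes of mesenchyme matrix and receptors the sum was 933 to 1275 CPM with Venus and 12713 to 21405 CPM without it (Kit- K5-), against 627 to 1055 CPM in the Kit+ libraries. Per kilobase of exon, Col3a1 stood at a mean of 475 CPM and Cdh1 at 37.9 CPM in Kit- K5- libraries, and at 11.1 and 128 CPM in Kit- K5+ libraries. Kit- K5- is therefore used below as the name of a gate rather than of a cell type. In bulk libraries, fewer cells of a type and less RNA per cell cannot be told apart, and whether non-epithelial cells entered the Kit- K5- gate was not tested.

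**Figure D1:**
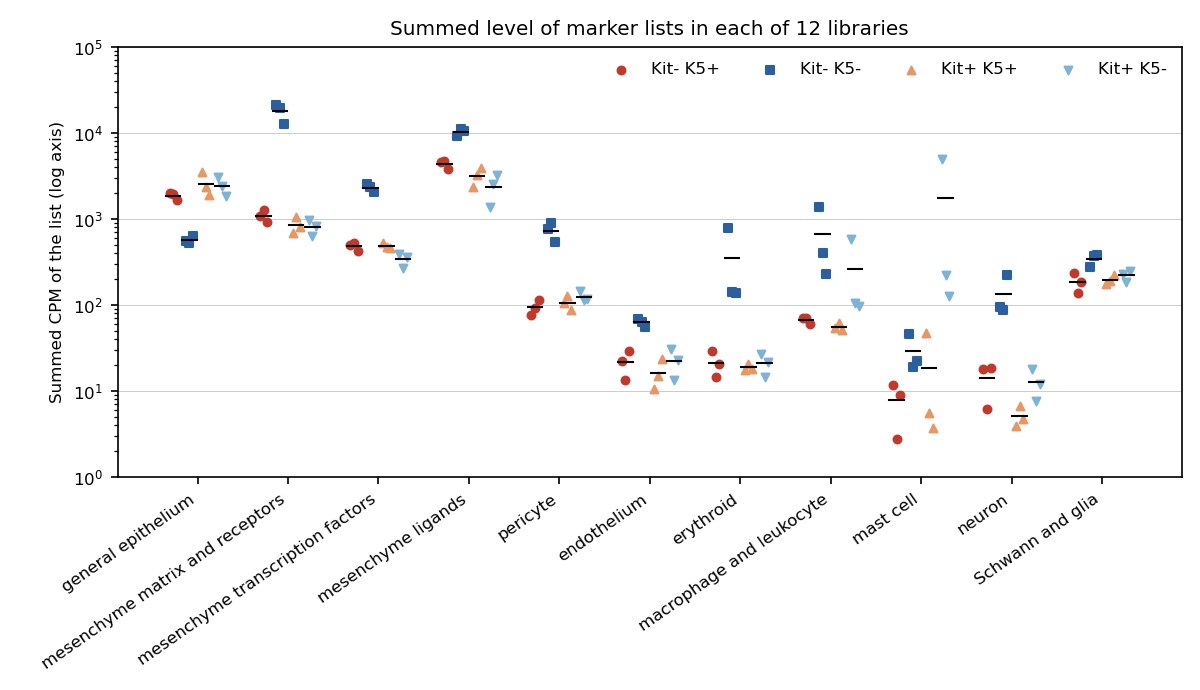
Summed CPM (log axis) of 11 marker lists in each of the 12 libraries, coloured by the 4 sorted populations. The mesenchyme matrix sum lies between 12713 and 21405 CPM in the 3 Kit- K5- libraries and at or below 1275 CPM in the other 9, and the general epithelium sum of Kit- K5- libraries, 529 to 642 CPM, is the lowest of the 4 populations.

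Of 17030 genes tested with edgeR's quasi-likelihood test, 1256 (7.38%) were higher in Kit- K5+ and 1550 (9.1%) higher in Kit- K5- cells, written as lower below, at an adjusted p under 0.05. At least a 2-fold difference was seen for 989 of the higher and 1320 of the lower genes, and 5235 genes had an unadjusted p under 0.05. The single libraries of the groups did not overlap for 2892 genes above and 3430 below. The median log2 difference over all genes was 0.04. When libraries were scaled instead to the counts of the 18 general epithelial genes, called epithelial scaling below, the median moved to -1.66, and 127 genes (0.746%) were higher and 11204 (65.8%) lower. Of the 1256 genes higher on the CPM scale, 121 were also higher per epithelial count, 986 passed in neither direction there and 149 were lower, while all 1550 lower genes were lower on both scales. A count of lower genes per epithelial count is therefore to be read against 65.8%. For genes of the lists other than these 18, where a gene described as higher on the CPM scale was not called higher per epithelial count, its value on that scale is given in the same paragraph, and a value given there without a p did not pass as higher.

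Both counts leaned on single libraries. Without Kit- K5- replicate 1 there were 495 higher and 867 lower genes, without Kit- K5- replicate 2 the higher count was 583, and leaving out Kit- K5- replicate 3 gave 814. Under epithelial scaling the higher count was 80 when Kit- K5+ replicate 1 was left out and 280 when replicate 2 of that group was. On simulated counts of this comparison, the test found 25 of 100 genes changed 2-fold and 91 of 100 changed 4-fold, so a 2-fold difference was often not detectable at this replication.

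Genes of epithelium in general were higher in Kit- K5+ cells on the CPM scale: 10 of 18 rose, none fell, and the median log2 difference was 1.33, against 7.38% higher and a median of 0.04 over all genes. Cdh1, which encodes E-cadherin itself, stood at 657, 575 and 529.7 CPM in the Kit- K5+ libraries and 172, 149 and 198 CPM in the Kit- K5- libraries. The Kit- K5+ values are all above the Kit- K5- values, with a log2 difference of 1.76 ± 0.28 (adjusted p = 0.000847). Epcam, an adhesion protein of epithelia, stood at 338, 417 and 318 CPM in the Kit- K5+ libraries and 64.8, 87.4 and 119 CPM in the Kit- K5- libraries (1.98 ± 0.24, adjusted p = 0.000117). Grhl2, a grainyhead factor that maintains epithelial junctions, stood at 213, 238 and 224 against 35, 53 and 70.04 CPM (2.10 ± 0.23, adjusted p = 6.05e-05). Esrp1, which directs epithelial splicing, stood at 284, 286 and 248 against 64.3, 66.8 and 90.7 CPM (1.88 ± 0.22, adjusted p = 7.74e-05). Spint2, a membrane protease inhibitor, stood at 77.9, 74.5 and 50.5 against 9.25, 14.5 and 17.2 CPM (2.32 ± 0.31, adjusted p = 0.000266). The log2 differences of these 5 genes lay between 1.76 and 2.32. Keratins 8 and 18 of simple epithelia did not pass: Krt8 stood at 26, 13.3 and 16.6 against 15, 6.44 and 7.25 CPM (adjusted p = 0.246) and Krt18 at 55.8, 42.6 and 42.7 against 59.2, 13.1 and 25.7 CPM (adjusted p = 0.67). Per 1000 counts of the general epithelial genes, Cdh1 stood at 329.9, 295 and 316 in Kit- K5+ and 310.5, 283 and 309 in Kit- K5- libraries, where the ranges overlap (log2 0.06, adjusted p = 0.855). Those 18 genes set that scale, so their values lie around 0 on it by construction and are no finding: none was called higher, Epcam, Grhl2, Esrp1 and Spint2 included, and 3 were called lower (Esrp2, Marveld2 and Llgl2).

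Promoters of 4 genes are printed because they stand for 4 patterns: the reporter's gene, a general epithelial gene, a ductal gene that stayed higher on both scales, and the leading mesenchyme gene. Each is the RefSeq window on GRCm38.p6 from 250 bases before to 50 after a transcript start, read 5′ to 3′ on the gene's strand: Krt5 at chr15:101712856-101713155 (minus), Epcam at chr17:87635729-87636028 (plus), Tfcp2l1 at chr1:118627695-118627994 (plus) and Col3a1 at chr1:45311288-45311587 (plus). Capitals mark the E-box CAGGTG or its reverse complement CACCTG, the letters recognised by the repressors ZEB1, ZEB2, SNAI1 and SNAI2.
Krt5: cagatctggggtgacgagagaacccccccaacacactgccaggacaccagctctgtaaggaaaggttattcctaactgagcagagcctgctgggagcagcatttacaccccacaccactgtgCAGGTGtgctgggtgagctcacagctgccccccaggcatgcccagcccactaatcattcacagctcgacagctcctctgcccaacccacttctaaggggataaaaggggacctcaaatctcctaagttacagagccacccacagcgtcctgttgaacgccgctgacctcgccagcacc
Epcam: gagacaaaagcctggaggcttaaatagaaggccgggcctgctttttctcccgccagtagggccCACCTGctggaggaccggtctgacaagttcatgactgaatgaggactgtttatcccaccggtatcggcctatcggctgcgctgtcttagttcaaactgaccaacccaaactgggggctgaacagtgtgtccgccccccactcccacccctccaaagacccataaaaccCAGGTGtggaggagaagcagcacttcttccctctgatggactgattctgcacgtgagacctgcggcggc
Tfcp2l1: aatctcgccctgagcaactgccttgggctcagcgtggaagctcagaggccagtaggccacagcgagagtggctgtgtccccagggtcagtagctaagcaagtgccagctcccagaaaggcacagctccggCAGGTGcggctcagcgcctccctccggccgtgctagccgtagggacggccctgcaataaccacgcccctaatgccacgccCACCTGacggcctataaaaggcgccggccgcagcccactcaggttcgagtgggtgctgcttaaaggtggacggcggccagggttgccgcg
Col3a1: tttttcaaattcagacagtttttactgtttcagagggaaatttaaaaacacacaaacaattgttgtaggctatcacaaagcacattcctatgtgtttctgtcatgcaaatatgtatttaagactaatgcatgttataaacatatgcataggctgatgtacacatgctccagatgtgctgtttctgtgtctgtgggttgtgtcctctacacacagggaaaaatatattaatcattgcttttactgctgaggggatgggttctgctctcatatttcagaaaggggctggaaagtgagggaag
The windows hold 1 match in Krt5, 2 in Epcam, 2 in Tfcp2l1 and 0 in Col3a1. Windows of other higher genes held 0 matches as well, namely those of Krt14, Col17a1 and Dapl1 and 1 of the 2 of Lamb3, so the printed set shows no rule.

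The E-box was chosen after the values were seen, because Zeb1 and Zeb2 were among the genes lower in Kit- K5+ cells, and 2 other motifs were searched on both strands. CAGGTG on either strand was present in 20.2% of all 32851 RefSeq windows and in 18.7% of the 14696 windows of tested genes. It was present in 24.6% of the 1164 windows of higher genes and in 16.2% of the 1468 windows of lower genes. Of the windows matched for the general epithelial genes, 10 of 11 (90.9%) held it, as did 5 of 9 (55.6%) for the hemidesmosome list and 0 of 10 for the mesenchyme matrix list. The AP-1 motif TGANTCA was present in 5.58% of windows of higher genes, 5.65% of those of lower genes and 5.37% of those of tested genes. The grainyhead and CP2 motif AACNGGTT was present in 2.49%, 1.09% and 1.88% in the same order. These matches describe letters in a window and were not tested as binding sites. Trp63, Itga6, Cdh1 and Grhl2 had no window in the table.

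Genes that attach basal cells to the basement membrane gave the highest median among the epithelial lists. Of 10 genes of hemidesmosomes and laminin-332, 8 rose and none fell, with a median log2 difference of 2.77, and under epithelial scaling 4 were higher (Itga6, Itgb4, Lama3 and Lamb3) and 3 lower (Dst, Plec and Cd151), with a median of 1.03. Itga6, integrin α6 (chromosome 2, 71745616 to 71858416 on the plus strand), stood at 1284, 878 and 408 CPM in the Kit- K5+ libraries and 108, 133 and 127 CPM in the Kit- K5- libraries. Every Kit- K5+ library was above every Kit- K5- library on the CPM scale, although the Kit- K5+ values themselves spread widely. The log2 difference was 2.80 ± 0.33 (adjusted p = 9.57e-05) and, per epithelial count, 1.05 ± 0.41 (adjusted p = 0.0299). Per 1000 general epithelial counts the groups overlapped for Itga6, at 645, 451 and 243 against 195, 252 and 198. Its partner Itgb4, integrin β4, stood at 335, 243 and 169.9 CPM in the Kit- K5+ libraries and 20.1, 47.9 and 43.9 CPM in the Kit- K5- libraries (2.74 ± 0.34, adjusted p = 0.00013; 1.02, adjusted p = 0.0321 per epithelial count). Col17a1, the transmembrane collagen of hemidesmosomes, stood at 305, 153 and 152 against 11, 22.4 and 42.4 CPM (3.01 ± 0.58, adjusted p = 0.00335), and its value per epithelial count did not pass (1.33, adjusted p = 0.0569). Itga3, which pairs with integrin β1 to bind laminin, stood at 162, 116 and 83.4 against 12.1, 35 and 36.2 CPM (2.12 ± 0.42, adjusted p = 0.00389). Per epithelial count Itga3 did not pass (0.40, adjusted p = 0.468).

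Lama3 and Lamb3 encode chains of the laminin-332 trimer. Lama3 stood at 205, 83.8 and 67 CPM in the Kit- K5+ libraries and 6.95, 12.3 and 8.37 CPM in the Kit- K5- libraries (3.69 ± 0.47, adjusted p = 0.000173). Without Kit- K5+ replicate 1 its log2 difference was 3.03, and its call per epithelial count (1.93, adjusted p = 0.00458) held whichever library was left out, the highest adjusted p being 0.0445. For Itga6 and Itgb4 that highest value was 0.176 and 0.161, so their call per epithelial count depended on single libraries. Lamb3 stood at 65.9, 17.7 and 13.6 against 2.36, 2.76 and 4.19 CPM (3.39 ± 0.68, adjusted p = 0.00449). Per epithelial count the number of higher genes in the hemidesmosome list fell to 1 in at least 1 leave-out. Lama3 held there, so Lamb3 lost its call on that scale. Lama3 and Lamb3 were both highest in Kit- K5+ replicate 1.

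Basal keratins and transcription factors followed with 7 of 13 tested genes higher, none lower and a median of 2.18, and with 2 higher and none lower per epithelial count (median 0.52). Trp63, which encodes p63, the factor that maintains basal cells of stratified and glandular epithelia (chromosome 16, 25683763 to 25892102 on the plus strand), stood at 460.4, 488 and 299.8 CPM in the Kit- K5+ libraries and 14, 89 and 99.8 CPM in the Kit- K5- libraries. The ranges did not overlap, and Kit- K5- replicate 1 was far below the other Kit- K5- libraries. The log2 difference was 2.62 ± 0.80 (adjusted p = 0.0384), a call that was lost without any 1 of the 6 libraries (adjusted p 0.0516 to 0.115), and per epithelial count it was 0.92 (adjusted p = 0.307). Krt17, a keratin of basal and appendage cells, stood at 21.6, 11.5 and 7.84 against 0.918, 1.3 and 1.94 CPM (3.31 ± 0.55, adjusted p = 0.00136; per epithelial count 1.59, adjusted p = 0.0241). Tfap2c, an AP-2 factor of surface epithelia, stood at 129, 59.1 and 26 against 7.61, 10.3 and 10.01 CPM (2.94 ± 0.45, adjusted p = 0.00076), with 2.19 without Kit- K5+ replicate 1. Its relative Tfap2a stood at 167, 155 and 174 against 16.1, 37 and 53.6 CPM (2.22 ± 0.35, adjusted p = 0.000905). Krt15 stood at 72.6, 72 and 114 against 2.89, 11.8 and 26.9 CPM (2.65 ± 0.67, adjusted p = 0.0168), which was lost without Kit- K5- replicate 2 (adjusted p = 0.0699). Krt14, the usual partner of keratin 5, stood at 133, 83.9 and 54.3 against 4.26, 18.3 and 13.4 CPM (2.92 ± 0.78, adjusted p = 0.0218), lost without Kit- K5- replicate 1 (adjusted p = 0.0893). Snai2, a zinc finger repressor found in basal cells and in mesenchyme, stood at 143, 159 and 86.1 against 55.4, 122 and 118 CPM with overlapping ranges and did not pass (adjusted p = 0.693). Per epithelial count, Krt17 and Tfap2c lost their calls with 1 library left out (adjusted p up to 0.14 and 0.379). Without Kit- K5- replicate 3 the log2 difference of Krt15 was 3.53. Tfap2a, Krt15 and Krt14 did not pass on the epithelial scale, at 0.55 (adjusted p = 0.265) for Tfap2a, 1.03 (adjusted p = 0.163) for Krt15 and 1.17 (adjusted p = 0.174) for Krt14.

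**Figure D2:**
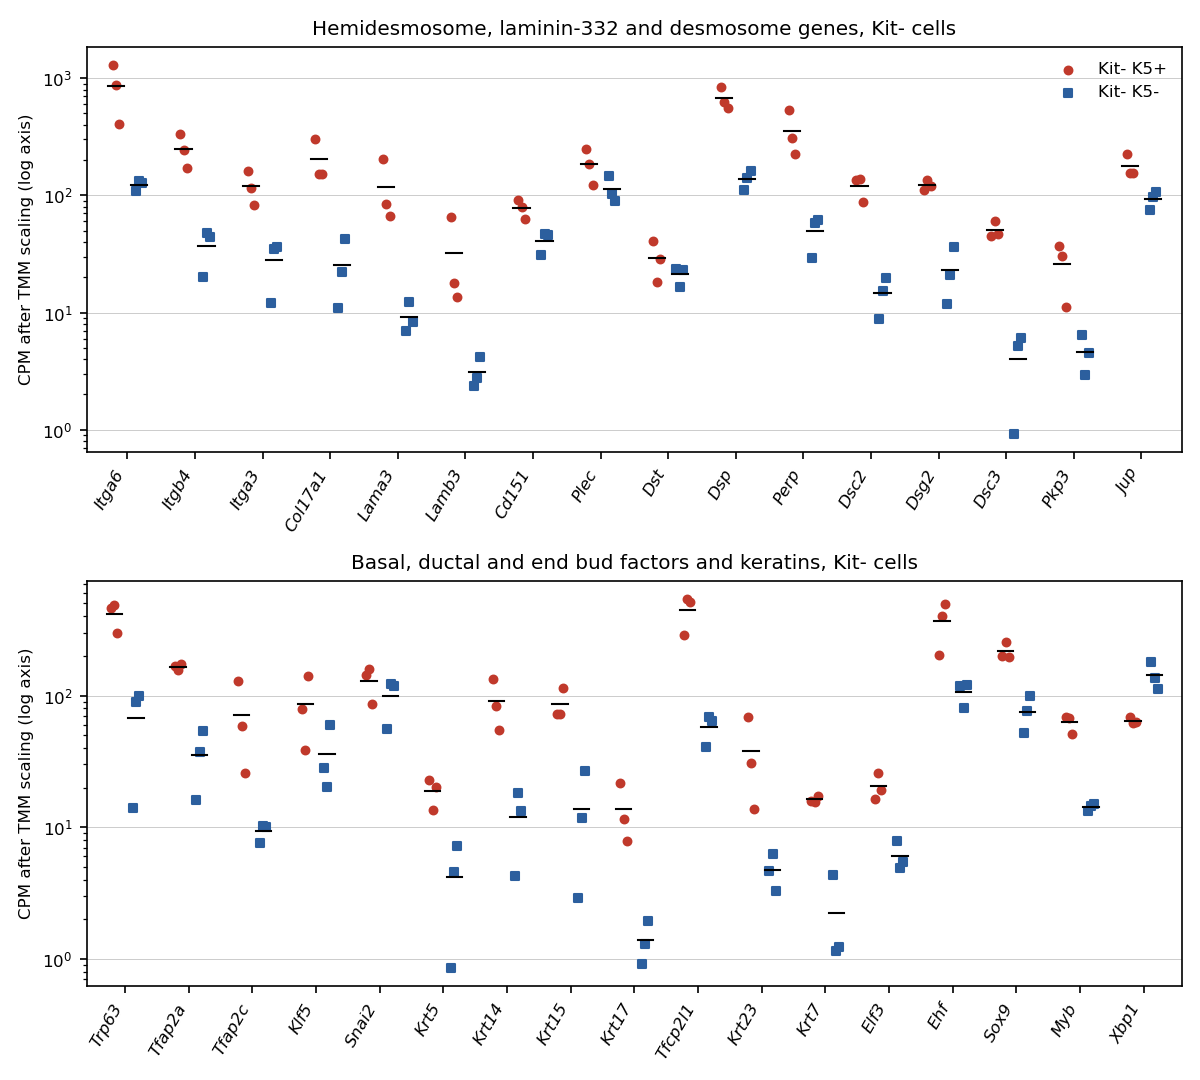
CPM (log axis) of hemidesmosome, laminin-332 and desmosome genes in the upper panel and of basal, ductal and end bud factors and keratins in the lower panel, with 1 point per library, red circles for Kit- K5+ and blue squares for Kit- K5-, and a black line at each mean. Itga6 runs from 408 to 1284 CPM in the Kit- K5+ libraries and from 108 to 133 CPM in the Kit- K5- ones, while Xbp1 lies in the opposite order, 61.7 to 68.8 against 111 to 179 CPM.

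Desmosomes join neighbouring epithelial cells, and 7 of 11 tested desmosome and cornified envelope genes rose, none fell, with a median of 2.30 and, per epithelial count, 3 higher (Dsc2, Dsc3 and Perp), 3 lower (Jup, Ppl and Evpl) and a median of 0.61. Dsp, the desmoplakin plaque protein, stood at 843, 626 and 559 CPM in the Kit- K5+ libraries and 111, 140.1 and 162 CPM in the Kit- K5- libraries (2.30 ± 0.21, adjusted p = 1.14e-05). The cadherin Dsc2 stood at 135, 139 and 88.6 against 8.72, 15.4 and 19.8 CPM (3.05 ± 0.32, adjusted p = 3.34e-05; per epithelial count 1.34, adjusted p = 0.0054), a call that stayed under 0.05 per epithelial count whichever library was left out. Dsc3 stood at 44.9, 60.03 and 47.1 against 0.918, 5.13 and 6.02 CPM (3.67 ± 0.62, adjusted p = 0.00146; per epithelial count 1.98, adjusted p = 0.0137, up to 0.0501 with 1 library left out). Perp, a p53 and p63 target of desmosomes, stood at 538, 308 and 226 against 29, 58.5 and 61.1 CPM (2.85 ± 0.35, adjusted p = 0.000134). Dsg2, a desmosomal cadherin, stood at 111, 136 and 120.3 against 11.9, 20.8 and 35.9 CPM (2.43 ± 0.32, adjusted p = 0.000202). In each of the 5 genes the groups did not overlap on the CPM scale, as in 2892 of the 17030 genes tested with Kit- K5+ above. The 5 were picked from the list by adjusted p, so that separation is no further result. The call of Perp per epithelial count (1.13, adjusted p = 0.0299) was lost with 1 library left out (adjusted p up to 0.162). Dsp and Dsg2 did not pass on the epithelial scale, at 0.59 (adjusted p = 0.118) for Dsp and 0.76 (adjusted p = 0.0817) for Dsg2.

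Tight junction and lumen genes rose or did not pass on the CPM scale. Of 15 genes, 5 rose and none fell (8 rose with the replicate block), with a median of 0.93. Per epithelial count 1 was higher and 5 lower, with a median of -0.72, beside 65.8% lower and a median of -1.66 over all genes. The one higher on both scales was Cldn8, a claudin of tight duct epithelia, at 45.5, 51.8 and 65.4 CPM in the Kit- K5+ libraries and 2.89, 5.82 and 13 CPM in the Kit- K5- libraries (2.92 ± 0.46, adjusted p = 0.000844; per epithelial count 1.28, adjusted p = 0.0177). Without Kit- K5- replicate 3 its log2 difference was 3.62, and its call per epithelial count reached an adjusted p of 0.0894 with 1 library left out. Prom1, an apical membrane protein, stood at 67.8, 54.3 and 69.4 against 51.6, 20.7 and 33.5 CPM and reversed, with a log2 difference of 0.85 (adjusted p = 0.0482) on the CPM scale and -0.84 (adjusted p = 0.0485) per epithelial count; 5 of 6 libraries ended the first call when left out (adjusted p up to 0.189). Pard6b, a polarity protein, stood at 16.5, 20.6 and 17.2 against 5.97, 4.98 and 7.45 CPM (1.56 ± 0.29, adjusted p = 0.00247) and had the opposite sign per epithelial count (-0.13), as did Tjp3 (8.75, 8.65 and 12.2 against 4.85, 2.99 and 1.94 CPM; 1.58 and -0.12). Ocln, occludin, stood at 12.4, 16.9 and 27.9 against 4.85, 0.843 and 6.33 CPM (2.25 ± 0.65, adjusted p = 0.0302). The calls of Tjp3 and Ocln were lost in 3 and 4 of the 6 leave-outs (adjusted p up to 0.083 and 0.0924). Per epithelial count Ocln did not pass (0.64, adjusted p = 0.352).

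Ductal keratins and factors were higher as well: 6 of 11 tested genes rose, none fell, with a median of 1.78, and 2 were higher per epithelial count. Tfcp2l1, a grainyhead-related factor of salivary and kidney ducts, stood at 290.4, 536 and 511 CPM in the Kit- K5+ libraries and 40.8, 68.6 and 63.9 CPM in the Kit- K5- libraries. Each Kit- K5+ value is far above the highest Kit- K5- value, with a log2 difference of 2.95 ± 0.27 (adjusted p = 1.23e-05). Per epithelial count it was still 1.26 ± 0.35 (adjusted p = 0.00481), and that call stayed under 0.05 in all 6 leave-outs (up to 0.036). Its means in the Kit+ populations were 99.1 (Kit+ K5+) and 64.8 CPM (Kit+ K5-). Krt23 stood at 68.4, 30.6 and 13.8 against 4.66, 6.28 and 3.27 CPM (2.98 ± 0.52, adjusted p = 0.00187; per epithelial count 1.20, adjusted p = 0.0401), with 2.22 without Kit- K5+ replicate 1. Its call per epithelial count was lost with 1 library left out (adjusted p up to 0.392). Krt7, a keratin of ducts, stood at 15.9, 15.5 and 17.4 against 4.33, 1.15 and 1.23 CPM (2.84 ± 0.71, adjusted p = 0.0153), lost without Kit- K5- replicate 2 or 3 (adjusted p up to 0.071), and 3.74 without Kit- K5- replicate 1. The ETS factors Elf3 and Ehf stood at 16.4, 25.8 and 19.3 against 7.8, 4.9 and 5.41 CPM (1.76 ± 0.33, adjusted p = 0.00321) and 203, 402 and 496 against 119, 80.4 and 121 CPM (1.78 ± 0.49, adjusted p = 0.0243), and the call of Ehf was lost in 5 leave-outs (adjusted p up to 0.0979). Krt7, Elf3 and Ehf did not pass on the epithelial scale, at 1.13 (adjusted p = 0.128) for Krt7, 0.05 (adjusted p = 0.909) for Elf3 and 0.12 (adjusted p = 0.794) for Ehf.

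End bud and acinar factors did not all point one way. Of 14 genes, 7 rose and 1 fell, with a median of 1.20, and per epithelial count none was higher and 5 were lower (median -0.51). Sox9, a factor of distal progenitors in branching organs, stood at 200.3, 255 and 198 CPM in the Kit- K5+ libraries and 51.5, 75.8 and 98.3 CPM in the Kit- K5- libraries (1.53 ± 0.27, adjusted p = 0.00193), with -0.16 per epithelial count. Myb stood at 68.8, 67.9 and 51.3 against 13.2, 14.5 and 15.1 CPM (2.14 ± 0.27, adjusted p = 0.000164). Etv4, an ETS factor induced by FGF signals, stood at 29.1, 30.2 and 30.03 against 7.93, 13.4 and 10.9 CPM (1.47 ± 0.36, adjusted p = 0.0133; -0.24 per epithelial count), lost without Kit- K5- replicate 1 (adjusted p = 0.0769). The homeobox factor Barx2 stood at 107, 75.3 and 119 against 3.15, 11 and 40.8 CPM (2.47 ± 0.63, adjusted p = 0.0175), lost without Kit- K5- replicate 2 (adjusted p = 0.0786) and 3.81 without Kit- K5- replicate 3. Xbp1, the factor that builds the secretory pathway, was the member that fell: 68.8, 61.7 and 62.7 CPM in the Kit- K5+ libraries and 179, 137 and 111 CPM in the Kit- K5- libraries (-1.15 ± 0.25, adjusted p = 0.00751), and it was lower on both scales (-2.87 per epithelial count). Myb and Barx2 did not pass on the epithelial scale, at 0.42 (adjusted p = 0.204) for Myb and 0.86 (adjusted p = 0.204) for Barx2.

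Secreted proteins of the immature gland varied widely between replicates of both gates. Of 12 tested genes, 4 rose and none fell, and the summed level was 67.5 to 713 CPM among the Kit- K5+ and 24.4 to 1929 CPM among the Kit- K5- libraries (exact permutation test, two-sided, p = 1, where 0.1 is the smallest that 3 against 3 allows). Smr3a stood at 23.8, 8.24 and 2.49 CPM in the Kit- K5+ libraries and 0.328, 0.613 and 0.613 CPM in the Kit- K5- libraries, and Dcpp1, a demilune cell protein, at 153, 79.1 and 28.1 against 6.1, 19.6 and 9.6 CPM. Their log2 differences were 4.46 (adjusted p = 0.00893, 0.0543 without Kit- K5+ replicate 1) and 2.88 (adjusted p = 0.0134, 0.0593 or 0.0643 without Kit- K5+ replicate 1 or Kit- K5- replicate 1). Without Kit- K5+ replicate 1 the differences were 3.35 and 2.19. Dcpp2 and Dcpp3 are near-identical neighbours of Dcpp1, so reads may be split among them, and their values (30.8, 25.7 and 8.99 against 1.18, 7.05 and 3.57 CPM and 18.5, 14.3 and 4.21 against 0.721, 3.98 and 2.04 CPM) are uncertain. Smgc, a secreted product of the early acinus, stood at 311, 39.3 and 3.63 against 1673, 77.6 and 3.98 CPM, so replicate 1 carried most of it in both gates (adjusted p = 0.448). Dcpp1, Dcpp2 and Dcpp3 did not pass on the epithelial scale, at 1.09 (adjusted p = 0.101) for Dcpp1, 0.71 (adjusted p = 0.305) for Dcpp2 and 0.69 (adjusted p = 0.342) for Dcpp3.

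Contractile genes of smooth muscle and myoepithelium were led by 1 library. Of 12 genes, 4 rose and none fell, with a median of 1.67, and 1 was higher and 4 lower per epithelial count. Acta2, smooth muscle actin, stood at 704, 124 and 26.4 CPM in the Kit- K5+ libraries and 29.9, 23.8 and 17.7 CPM in the Kit- K5- libraries. Kit- K5+ replicate 1 was far above the other 5 libraries. The log2 difference of 3.58 ± 0.85 (adjusted p = 0.0116) became 1.66 (adjusted p = 0.0835) without it. Actg2 (45.8, 10.9 and 4.4 against 1.9, 1.38 and 2.35 CPM), Myh11 (24.3, 9.2 and 5.55 against 1.71, 3.6 and 1.53 CPM) and Tagln (62.4, 12.5 and 4.78 against 3.67, 5.9 and 5 CPM) had the same order, with log2 differences of 3.44, 2.51 and 2.45 that became 2.02, 1.68 and 0.83 without Kit- K5+ replicate 1. The call of Acta2 per epithelial count (1.78, adjusted p = 0.0409) was also lost with 1 library left out (adjusted p up to 0.914, with a log2 difference down to -0.08). None of the other 3 passed without that library (adjusted p = 0.0648, 0.0934 and 0.39), and Tagln did not pass with the replicate block either (adjusted p = 0.057). Cnn1, calponin of myoepithelium, stood at 31, 0.687 and 0.765 against 1.38, 0.306 and 0 CPM, with Kit- K5+ replicate 1 again the highest. Actg2, Myh11 and Tagln did not pass on the epithelial scale, at 1.69 (adjusted p = 0.0588) for Actg2, 0.73 (adjusted p = 0.311) for Myh11 and 0.67 (adjusted p = 0.422) for Tagln.

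Genes by which epithelium and nerve signal to each other moved singly. Of 12 genes, 3 rose and 1 fell, with a median of 0.97. Chrm3, the muscarinic receptor through which parasympathetic nerves drive salivary secretion, stood at 104, 31.6 and 12.2 CPM in the Kit- K5+ libraries and 3.54, 2.3 and 3.06 CPM in the Kit- K5- libraries (4.05 ± 0.62, adjusted p = 0.00067). Every Kit- K5+ library was above the Kit- K5- libraries, but its values ranged from 12.2 to 104 CPM, and without Kit- K5+ replicate 1 the log2 difference was 2.88. Per epithelial count it was 2.29 (adjusted p = 0.00207), under 0.05 in all 6 leave-outs. Chrm1 stood at 26.5, 14 and 6.5 against 8.59, 3.45 and 2.86 CPM (1.65 ± 0.53, adjusted p = 0.0475; -0.12 per epithelial count), and its call was lost in 4 of 6 leave-outs (adjusted p up to 0.216). Without Kit- K5+ replicate 1 its difference was 1.04, and without Kit- K5- replicate 1 it was 2.29. Sema3a, a repellent of axons, was lower at 9.75, 26.2 and 63.5 against 156, 151 and 136 CPM (-2.17 ± 0.60, adjusted p = 0.0251), with -3.05 without Kit- K5+ replicate 3, its highest Kit- K5+ library, and with the call lost in 4 leave-outs (adjusted p up to 0.0828).

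**Figure D3:**
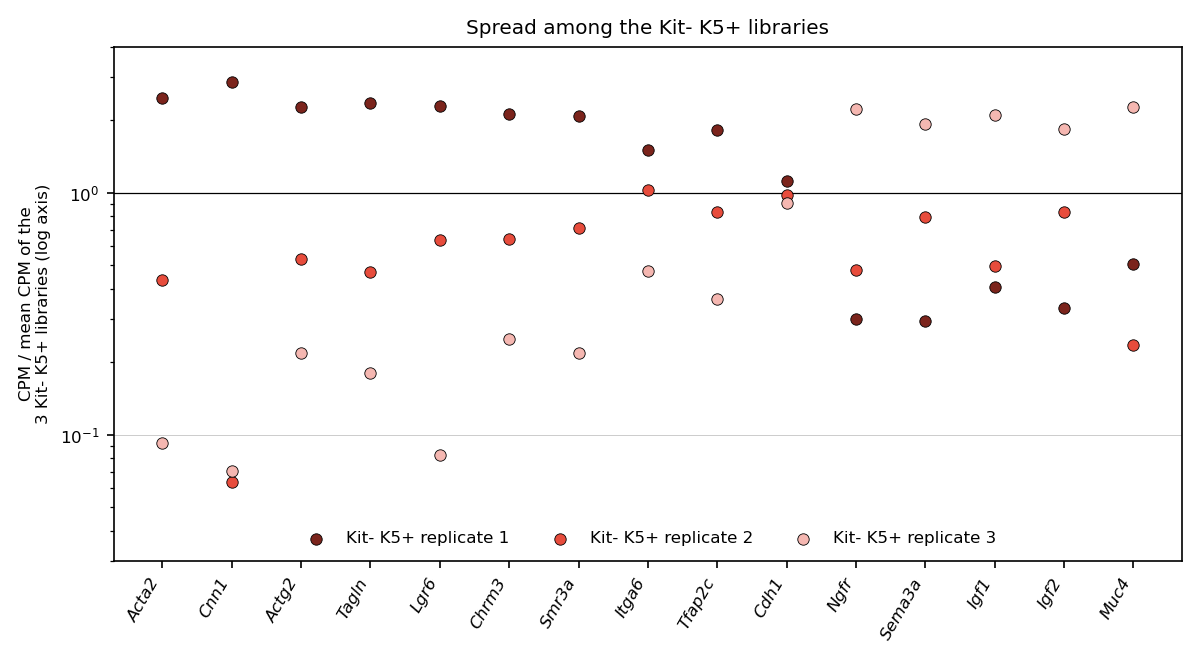
CPM of each library divided by the mean CPM of the 3 Kit- K5+ libraries (log axis) for 15 genes chosen after their values were seen, with 1 point per library. Acta2, Lgr6, Chrm3 and Smr3a are highest in Kit- K5+ replicate 1, and Igf1, Igf2, Sema3a and Muc4 are highest among Kit- K5+ libraries in replicate 3.

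Wnt pathway genes that rose were receptors, feedback genes and 1 ligand. Of 15 tested, 5 rose and none fell (median 0.76), with 1 higher and 6 lower per epithelial count. Rnf43, a membrane ubiquitin ligase that removes Wnt receptors, stood at 43.4, 44.6 and 41.5 CPM in the Kit- K5+ libraries and 7.48, 7.74 and 9.19 CPM in the Kit- K5- libraries (2.41 ± 0.21, adjusted p = 8.45e-06). The 3 values within each group lay close together, and the value per epithelial count did not pass (0.71, adjusted p = 0.0902). The ligand Wnt4 stood at 36, 44.6 and 52 against 5.71, 10.3 and 15.3 CPM (2.08 ± 0.41, adjusted p = 0.00368). The R-spondin receptor Lgr6 stood at 106, 29.4 and 3.83 against 3.15, 3.98 and 2.35 CPM (3.87 ± 0.81, adjusted p = 0.00571; 2.06, adjusted p = 0.0162 per epithelial count), with 2.39 without Kit- K5+ replicate 1 and with the second call lost with 1 library left out (adjusted p up to 0.418). Znrf3, a second ligase of that kind, stood at 154, 101 and 114 against 35.9, 43.7 and 66.6 CPM (1.34, and -0.35 per epithelial count). Wls, which carries Wnts to the surface, stood at 70.02, 135 and 99.1 against 38.8, 39.99 and 42 CPM (1.33, and -0.37 per epithelial count). The call of Wls was lost without Kit- K5+ replicate 2 or Kit- K5- replicate 1 (adjusted p up to 0.0603). Per epithelial count Wnt4 did not pass (0.42, adjusted p = 0.445).

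Of 14 tested Notch genes, 3 rose and 3 fell (median 0.14). The ligands Jag2 and Dll1 were higher, at 98.4, 83.8 and 63.3 against 4.26, 28 and 21.4 CPM (2.20 ± 0.63, adjusted p = 0.0292) and 31.4, 19.8 and 10.9 against 2.23, 6.21 and 2.55 CPM (2.50 ± 0.58, adjusted p = 0.0103), while the receptor Notch2 was lower at 41, 67.2 and 89.7 CPM in the Kit- K5+ libraries and 276, 243 and 234 CPM in the Kit- K5- libraries (-1.93 ± 0.32, adjusted p = 0.00118). Heyl, a Notch target gene, stood at 1.25, 0.962 and 2.1 CPM in the Kit- K5+ libraries and 42.3, 76.7 and 54.6 CPM in the Kit- K5- libraries (-5.35 ± 0.68, adjusted p = 0.000164). Notch3, also counted among pericyte genes, stood at 21.3, 21.3 and 50.3 against 86.4, 61.9 and 68.6 CPM (-1.23 ± 0.39, adjusted p = 0.0443), and the target Hey1 at 32.8, 88.5 and 57.4 against 13.8, 24.4 and 30.6 CPM (1.38 ± 0.40, adjusted p = 0.0314; -0.30 per epithelial count). Calls of Jag2 and Hey1 were lost in 4 leave-outs each, of Notch3 in 5, and of Dll1 without Kit- K5- replicate 1 (adjusted p up to 0.083, 0.148, 0.135 and 0.0573). Without Kit- K5- replicate 2 the difference of Dll1 was 3.09. Jag2 and Dll1 did not pass on the epithelial scale, at 0.47 (adjusted p = 0.522) for Jag2 and 0.72 (adjusted p = 0.32) for Dll1.

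Among growth factor receptors, 2 of 9 tested ErbB genes and 4 of 11 FGF genes rose, and 1 FGF gene fell. Egfr stood at 272, 305 and 298 against 119, 121 and 136 CPM (1.22 ± 0.32, adjusted p = 0.0192) and Erbb3 at 73, 99.3 and 85.7 against 36.4, 37.4 and 55.8 CPM (0.99 ± 0.23, adjusted p = 0.0107), and both were below 0 per epithelial count (-0.48 and -0.69) and lost their calls in 3 leave-outs each (adjusted p up to 0.081 and 0.0711). Fgfr2, the receptor of FGF10 in the epithelium, stood at 360.5, 419 and 408 against 29.6, 76.5 and 162 CPM (2.15 ± 0.52, adjusted p = 0.0129), lost without Kit- K5- replicate 2 (adjusted p = 0.0584) and 2.88 without Kit- K5- replicate 3. Fgfr1 stood at 666, 592 and 406 against 130.3, 194 and 214 CPM (1.63 ± 0.35, adjusted p = 0.00692; -0.09 per epithelial count). The ligand Fgf1 stood at 129, 175 and 95.6 against 15, 41 and 29.3 CPM (2.23 ± 0.33, adjusted p = 0.000565). Of the feedback inhibitors in the FGF list only 2 passed, in opposite directions. Dusp6 stood at 176, 156 and 129.9 against 64.3, 67.2 and 85.7 CPM (1.09 ± 0.21, adjusted p = 0.00336; -0.61 per epithelial count). Spry4 was lower at 31.6, 22.1 and 26.8 against 205, 221 and 105 CPM (-2.72 ± 0.30, adjusted p = 5.27e-05). Fgfr2 and Fgf1 did not pass on the epithelial scale, at 0.51 (adjusted p = 0.447) for Fgfr2 and 0.50 (adjusted p = 0.295) for Fgf1.

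Mitosis genes were higher on the CPM scale, where 13 of 20 rose and none fell (median 0.81), against 7.38% higher and a median of 0.04 over all genes. Per epithelial count none was higher and 14 were lower (median -0.91), against 65.8% lower and a median of -1.66 over all genes. Kif23 and Prc1, proteins of the spindle midzone, stood at 186, 196 and 132 against 55.1, 71.7 and 71.7 CPM (1.37, and -0.35 per epithelial count) and 89.5, 100.1 and 104 against 53.6, 51.9 and 53.8 CPM (0.88, and -0.81). Ect2, Nusap1 and Ccnb1 rose by 1.34, 1.20 and 1.11 on the log2 scale and stood at -0.36, -0.52 and -0.57 per epithelial count. The change of sign follows from the shift of all genes under that scaling and is no result about mitosis, and the geometric-mean form of the scaling called 2 lower rather than 14.

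**Figure D4:**
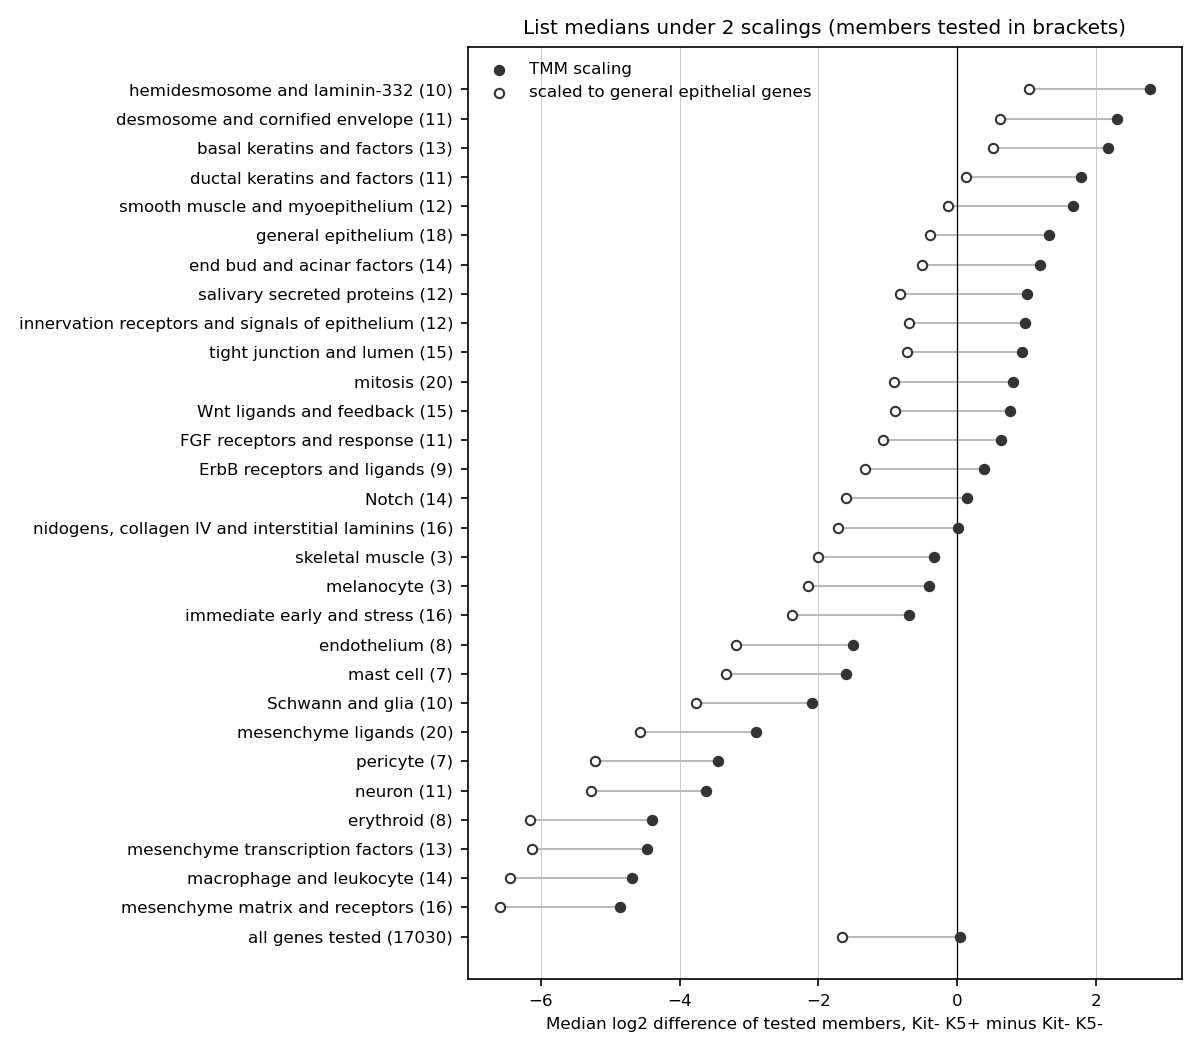
Median log2 difference, Kit- K5+ minus Kit- K5-, of each gene list, with filled points for TMM scaling, open points for epithelial scaling and the number of tested genes in brackets. The hemidesmosome median stays above 0 on both scales (2.77 and 1.03), although 3 of its 10 genes were called lower with epithelial scaling. Mitosis medians lie at 0.81 and -0.91 beside 0.04 and -1.66 over all genes, and mesenchyme matrix medians stay below 0 (-4.86 and -6.59).

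Outside the lists, 10 genes were named for their rise per epithelial count, among those past 0.05 with no overlap on that scale and a mean of 10 CPM or more in Kit- K5+ libraries, and Dapl1 had the largest. Lrp2, the endocytic receptor megalin, stood at 22.8, 2.88 and 9.95 against 0.328, 0.46 and 1.02 CPM (4.31 ± 0.83, adjusted p = 0.00334; per epithelial count 2.64, adjusted p = 0.00978), and 3.40 without Kit- K5+ replicate 1. It was named for its fold on the CPM scale, and per 1000 general epithelial counts its groups overlap, at 11.4, 1.48 and 5.93 against 0.592, 0.869 and 1.59. Dapl1 stood at 80.1, 43.7 and 22 CPM in the Kit- K5+ libraries and 0.459, 3.52 and 4.19 CPM in the Kit- K5- libraries (4.18 ± 0.66, adjusted p = 0.000942). Per 1000 general epithelial counts Dapl1 stood at 40.3, 22.4 and 13.1 against 0.828, 6.66 and 6.52, and its log2 difference of 2.45 (adjusted p = 0.00334) stayed under 0.05 in all 6 leave-outs. The call on that scale was lost with at least 1 library left out for Lrp2, Rgs6 (a regulator of G protein signals), Dbx2 (a homeobox factor), Adam28, Cav2 (caveolin 2), Serpinb5 (maspin, a serpin of myoepithelial and basal cells), Vwa2, Adcy8, Fmod and Ntng1. Serpinb5 stood at 17.6, 9.48 and 7.27 against 0.393, 1.23 and 1.33 CPM (3.55 ± 0.58, adjusted p = 0.0011) and Cav2 at 80.02, 39.8 and 17.4 against 3.54, 4.6 and 3.37 CPM (3.57 ± 0.56, adjusted p = 0.000789). Dbx2 stood at 11.6, 10.3 and 18.2 against 0.328, 1.76 and 0.919 CPM (3.72 ± 0.68, adjusted p = 0.00251). Rgs6 stood at 16.4, 6.32 and 7.65 against 0.656, 0.766 and 0.715 CPM (3.81 ± 0.65, adjusted p = 0.00151). Adcy8, an adenylyl cyclase, stood at 85.3, 44.2 and 34.1 against 2.75, 4.75 and 7.96 CPM (3.42 ± 0.53, adjusted p = 0.000739). Fmod, a small proteoglycan, stood at 64.3, 24.3 and 12.2 against 2.82, 3.6 and 2.65 CPM (3.47 ± 0.60, adjusted p = 0.00177). Adam28, Vwa2 and Ntng1 had log2 differences of 3.68, 3.48 and 3.40. Without Kit- K5+ replicate 1 the values of Cav2, Fmod and Ntng1 were 2.89, 2.58 and 2.80, and without Kit- K5- replicate 2 that of Dbx2 was 4.42. The other 3 genes named for their fold on the CPM scale were uneven, namely Lipm (27.6, 10.4 and 2.49 against 1.05, 0.843 and 1.33 CPM), Muc4, a membrane mucin (11, 5.08 and 49.2 against 1.97, 0.843 and 2.35 CPM), and Abca12, a lipid transporter (15.6, 3.43 and 16.1 against 0.328, 0.536 and 2.04 CPM). Muc4 and Abca12 lost their call in 2 and 4 leave-outs (adjusted p up to 0.0838 and 0.0861). The log2 difference of Lipm went from 3.65 to 2.59 without Kit- K5+ replicate 1, that of Muc4 from 3.65 to 2.22 without Kit- K5+ replicate 3, and that of Abca12 from 3.62 to 4.70 without Kit- K5- replicate 3. Per epithelial count Abca12 did not pass (2.01, adjusted p = 0.0546).

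**Figure D5:**
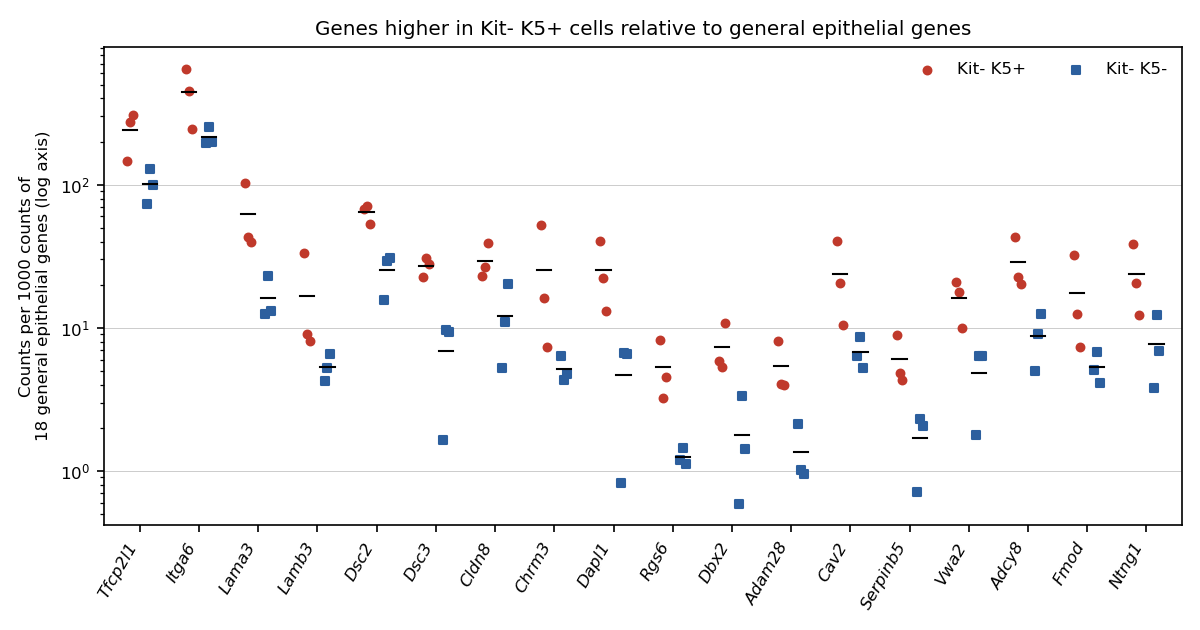
Counts per 1000 counts of the 18 general epithelial genes (log axis) for 18 genes in the 6 Kit- libraries, red circles for Kit- K5+ and blue squares for Kit- K5-. Tfcp2l1, Dsc2 and Dapl1 are higher in each Kit- K5+ library than in any Kit- K5- library.

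Mesenchyme genes were the lower ones in Kit- K5+ cells. Of 16 matrix and receptor genes, none rose and 14 fell (9.1% lower over all genes), and the median was -4.86. The 16 were all non-overlapping, with Kit- K5+ below, as were 3430 of the 17030 genes tested. Col3a1, the α1 chain of collagen III (chromosome 1, 45311538 to 45349706 on the plus strand), stood at 97.8, 132 and 96.4 CPM in the Kit- K5+ libraries and 5418, 5239.7 and 3338 CPM in the Kit- K5- libraries. Its log2 difference was -5.42 ± 0.46 (adjusted p = 6.97e-06), and it stood at 37.8 to 156 CPM in the 6 Kit+ libraries. Col1a2, of collagen I, stood at 82, 87.4 and 82.8 CPM in the Kit- K5+ libraries and 3443, 3047 and 1902 CPM in the Kit- K5- libraries (-5.06 ± 0.41, adjusted p = 5.59e-06). Dcn, the proteoglycan decorin, stood at 35.3, 59.3 and 36.2 against 1395, 1718 and 1081 CPM (-5.0 ± 0.43, adjusted p = 7.7e-06). Col5a2 and Col6a3, of collagens V and VI, differed by -4.71 and -5.01. Pdgfra, the receptor that marks fibroblasts, stood at 12.8, 11 and 10.1 against 707, 637 and 434 CPM (-5.71 ± 0.50, adjusted p = 8.75e-06). Vim, vimentin, which epithelial cells can also express, differed less, at 291, 408 and 188 against 826, 993 and 858 CPM (-1.59 ± 0.32, adjusted p = 0.00409). The keratan sulphate proteoglycan Kera, outside the lists, had the lowest adjusted p among the named genes with Nid2, at 1.13, 2.75 and 1.15 against 157, 203 and 112 CPM (-6.52 ± 0.48, adjusted p = 2.91e-06, and -7.11 without Kit- K5+ replicate 2). All of these were lower on both scales.

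Transcription factors of mesenchyme were lower as well: 10 of 13 tested were lower, none higher, with a median of -4.46. Prrx1, a homeobox factor of craniofacial and limb mesenchyme, stood at 13.9, 21.3 and 37.9 CPM in the Kit- K5+ libraries and 581, 561 and 459 CPM in the Kit- K5- libraries (-4.46 ± 0.44, adjusted p = 2.1e-05). Osr2 and Barx1, 2 further factors of craniofacial mesenchyme, stood at 1.13, 1.37 and 4.4 against 60.1, 45.9 and 81.5 CPM (-4.81 ± 0.50, adjusted p = 3.28e-05) and 0.75, 2.2 and 0.956 against 45.6, 60.4 and 32.9 CPM (-5.13 ± 0.64, adjusted p = 0.000151). Zeb1 and Zeb2, repressors of epithelial genes, stood at 18.8, 4.12 and 13.8 against 312, 288 and 226 CPM (-4.49 ± 0.51, adjusted p = 7.11e-05) and 19.3, 13.9 and 13.6 against 492, 325 and 321 CPM (-4.60 ± 0.75, adjusted p = 0.00115). Without Kit- K5+ replicate 3 the difference of Osr2 was -5.64, and without Kit- K5+ replicate 2 that of Barx1 was -5.78. Tcf4, which epithelia also express, stood at 232, 295 and 296 against 830.0, 777 and 688 CPM (-1.48 ± 0.21, adjusted p = 0.000352). Tbx2 and Palm3, outside the lists, stood at 0.375, 0.275 and 0.191 against 28.7, 25.4 and 11.9 CPM and 0.375, 0.824 and 0.765 against 63.5, 50.5 and 53.4 CPM, so that both were below 1 CPM in each Kit- K5+ library.

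Signals that mesenchyme sends to epithelium were not uniform. Of 20 ligands and related genes, 11 fell and 3 rose, with a median of -2.90. Fgf10, the signal that drives end bud growth through Fgfr2, stood at 2.13, 6.73 and 10.9 CPM in the Kit- K5+ libraries and 154, 180.4 and 119.9 CPM in the Kit- K5- libraries (-4.55 ± 0.51, adjusted p = 6.51e-05). Igf1 stood at 6.25, 7.69 and 32.3 against 328, 379 and 422 CPM (-4.63 ± 0.57, adjusted p = 0.000127), and without Kit- K5+ replicate 3, its highest Kit- K5+ library, its log2 difference was -5.76. Igf2, a fetal growth factor, stood at 336, 838 and 1854 against 7443, 8608 and 8094 CPM (-3.00 ± 0.53, adjusted p = 0.00193), and it had the same order among Kit- K5+ libraries. The chemokine Cxcl12 stood at 3.13, 12.2 and 14.2 against 137, 149.9 and 166 CPM (-3.96 ± 0.46, adjusted p = 8.47e-05). The retinoic acid enzyme Aldh1a2 stood at 1.88, 1.51 and 7.46 against 181, 151 and 97.6 CPM (-5.37 ± 0.73, adjusted p = 0.000272), and at -6.39 on the log2 scale without Kit- K5+ replicate 3. Hgf stood at 1.25, 2.88 and 1.34 against 41.1, 25.4 and 33 CPM (-4.16 ± 0.56, adjusted p = 0.000275). The 3 that rose were Kitl, Sfrp1 and Aldh1a1. Kitl, the ligand of Kit, stood at 487, 404 and 203 against 179.8, 161 and 106 CPM (1.29 ± 0.36, adjusted p = 0.0251). Sfrp1, a secreted Wnt inhibitor, stood at 3403, 3060.5 and 1391 against 583, 1207 and 1200.5 CPM (1.39 ± 0.40, adjusted p = 0.0302). Aldh1a1, a retinoic acid enzyme, stood at 162, 106 and 42.5 against 52.4, 26 and 16.2 CPM (1.71 ± 0.53, adjusted p = 0.0429). Each of the 3 lost its call with 1 library left out (Kit- K5- replicate 3, Kit- K5- replicate 1 and Kit- K5+ replicate 1 in turn, with adjusted p of 0.0986, 0.13 and 0.165) and was below 0 per epithelial count (-0.47, -0.34 and -0.07).

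Basement membrane components divided by chain. Of 16 genes of nidogens, collagen IV, other laminins and linkers, 4 rose and 4 fell (median 0.01), and per epithelial count 9 were lower, against 65.8% of all genes, and none higher. The linkers Nid1 and Nid2, which tie laminin to collagen IV, were lower, at 41.1, 79.7 and 79.8 CPM in the Kit- K5+ libraries and 1565, 1363 and 894 CPM in the Kit- K5- libraries (-4.25 ± 0.43, adjusted p = 2.63e-05) and 17.5, 16.6 and 17.6 against 641, 675 and 412 CPM (-5.06 ± 0.36, adjusted p = 2.91e-06). Lama2, the laminin chain of muscle and mesenchyme, stood at 9.63, 11.3 and 13 against 354, 282 and 203 CPM (-4.63 ± 0.54, adjusted p = 8.49e-05). By contrast Lama5, the laminin chain of epithelial basement membranes, stood at 349, 284 and 229.8 CPM in the Kit- K5+ libraries and 16.1, 72.5 and 80.7 CPM in the Kit- K5- libraries (2.35 ± 0.49, adjusted p = 0.00583; 0.65, adjusted p = 0.276 per epithelial count). Agrn, agrin, stood at 887, 554 and 460.1 against 159.7, 253 and 234 CPM (1.55 ± 0.30, adjusted p = 0.0036; -0.17 per epithelial count). Col4a5 was higher at 202, 175 and 104 against 13.1, 39.2 and 43.5 CPM (2.33 ± 0.53, adjusted p = 0.00965), while Col4a1 (1568, 968 and 405 against 476, 521 and 327 CPM, adjusted p = 0.165) and Lamc1 (886, 704 and 462 against 567, 607 and 457 CPM, adjusted p = 0.528) did not pass. Laminin α chains thus stood in opposite order between the gates, with Lama3 and Lama5 higher and Lama2 lower in Kit- K5+ cells on the CPM scale. Per epithelial count Col4a5 did not pass (0.62, adjusted p = 0.36).

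Of vessel wall and vessel lining genes, those of pericytes were lower. Among 7 tested pericyte genes 5 fell and none rose, with a median of -3.45 and summed levels of 77.1 to 113 CPM against 542 to 894 CPM. Abcc9, a potassium channel subunit, stood at 12, 6.46 and 8.42 CPM in the Kit- K5+ libraries and 443, 632 and 363 CPM in the Kit- K5- libraries (-5.74 ± 0.49, adjusted p = 7.3e-06). Its partner Kcnj8 stood at 1.25, 0.824 and 0.191 against 33.5, 31.7 and 15.2 CPM (-5.06 ± 0.91, adjusted p = 0.00227). Cspg4, NG2, stood at 11.4, 3.85 and 6.5 against 126, 87.1 and 26 CPM (-3.45 ± 0.68, adjusted p = 0.00395). Endothelial genes were low in both gates, with sums of 13.5 to 29.5 CPM against 55.2 to 69.6 CPM. None of 8 tested passed on the CPM scale (edgeR, 1 lower with the replicate block), and per epithelial count 7 were lower, against 65.8% of all genes. Tek, the angiopoietin receptor, stood at 1.75, 7.28 and 4.78 against 18.1, 7.58 and 14.2 CPM (adjusted p = 0.0744) and Emcn, endomucin, at 7.63, 0 and 8.03 against 16.8, 16.2 and 10.3 CPM (adjusted p = 0.357).

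Blood cell transcripts were lower in Kit- K5+ cells and uneven within Kit- K5-. Of 14 macrophage and leukocyte genes 10 fell and none rose (median -4.68), with sums of 60.1 to 71.6 CPM against 232 to 1399 CPM. Lyz2, lysozyme of myeloid cells, stood at 2.13, 1.1 and 0.191 CPM in the Kit- K5+ libraries and 206, 39.99 and 14.7 CPM in the Kit- K5- libraries, and Mrc1, the mannose receptor of tissue macrophages, at 2.88, 0.962 and 3.06 CPM in the Kit- K5+ libraries and 359.7, 57.6 and 34.2 CPM in the Kit- K5- libraries. Kit- K5- replicate 1 was far above the other Kit- K5- libraries for both genes. Their log2 differences were -6.15 (adjusted p = 0.00298) and -6.04 (adjusted p = 0.00671), and -4.54 and -4.35 without that library. That of Lyz2 was -6.94 without Kit- K5+ replicate 1. C1qc, a complement subunit made by macrophages, stood at 0.25, 0 and 0 against 55.4, 13.1 and 8.58 CPM, and Csf1r, their growth factor receptor, at 5.88, 1.24 and 1.15 against 171, 47 and 23.3 CPM. C5ar1, Ccl9, C1s1 and Ighm, named outside the lists and not assigned to a cell type here, were also near 0 in Kit- K5+ libraries. C5ar1 (0.125, 0.137 and 0 against 40.9, 8.04 and 3.98 CPM) lost its call without Kit- K5- replicate 1 (adjusted p = 0.0541).

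Of 8 tested erythroid genes 5 fell and none rose (median -4.40), with sums of 14.7 to 29.0 CPM against 139 to 786 CPM. Hbb-bs, adult β globin, stood at 13, 2.61 and 5.93 CPM in the Kit- K5+ libraries and 470.4, 63.4 and 50.2 CPM in the Kit- K5- libraries, with replicate 1 again the highest Kit- K5- library. The log2 difference of -4.75 (adjusted p = 0.00219) was -3.00 without it and -5.55 without Kit- K5+ replicate 1. Hba-a1 stood at 3.13, 0.412 and 0 against 104, 10.6 and 9.49 CPM and lost its call without Kit- K5- replicate 1 (adjusted p = 0.104); its near-identical copy Hba-a2 may take part of its reads. The embryonic globin Hbb-y had the opposite order, 0, 0.412 and 0.574 against 4.92, 33.8 and 44.8 CPM, with replicate 1 the lowest Kit- K5- library, and its call was lost without Kit- K5+ replicate 1 (adjusted p = 0.0505). Another embryonic globin, Hba-x, stood at 0.375, 0.137 and 0 against 6.89, 21.9 and 14.4 CPM. Mast cell genes were low, with sums of 2.75 to 11.6 CPM against 19.2 to 46.6 CPM, and 1 of 7 fell, Gata2 (0, 0 and 0.191 against 10.6, 2.76 and 5.41 CPM), lost in 4 leave-outs (adjusted p up to 0.077).

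Nerve transcripts were present in Kit- K5- libraries at low levels. Of 11 tested neuron genes 7 fell and none rose (median -3.62), with sums of 6.18 to 18.4 CPM against 86.7 to 222 CPM. Gap43, the growth-cone protein, stood at 0.75, 0.962 and 1.15 CPM in the Kit- K5+ libraries and 20.5, 17.5 and 43.1 CPM in the Kit- K5- libraries (-4.82 ± 0.67, adjusted p = 0.000315). Stmn2, a growth-associated protein of neurons, stood at 1, 0.275 and 0.383 against 6.23, 11 and 23.5 CPM and Tubb3, neuronal tubulin, at 0.25, 0.137 and 0.383 against 5.05, 2.07 and 13.7 CPM. Kit- K5- replicate 3 was highest for all 3 genes, and Tubb3 and Nefm (0.875, 1.65 and 0.765 against 12.9, 5.82 and 22.6 CPM) lost their call without it (adjusted p = 0.0699 and 0.0517). Schwann cell genes differed less: 3 of 10 fell and none rose (5 with the replicate block, where 1 rose), with sums of 139 to 236 CPM against 280 to 381 CPM. Fabp7, a marker of Schwann cell precursors, stood at 2.75, 4.67 and 2.68 CPM in the Kit- K5+ libraries and 23.3, 61.2 and 57.6 CPM in the Kit- K5- libraries (-3.80 ± 0.56, adjusted p = 0.000548). Ngfr, the p75 neurotrophin receptor, stood at 8.13, 12.9 and 59.9 against 117, 211 and 175 CPM (-2.65 ± 0.77, adjusted p = 0.0311) and Foxd3, a neural crest factor, at 0.125, 0.55 and 0 against 2.49, 5.36 and 5.41 CPM, and they lost their calls in 4 and 6 leave-outs (adjusted p up to 0.104 and 0.123). The difference of Ngfr moved most without Kit- K5+ replicate 3, to -4.0. Melanocyte genes passed in neither direction (3 tested), and 1 of 3 tested skeletal muscle genes fell, Tnnt1 (0, 0.137 and 0.765 against 9.97, 4.21 and 6.23 CPM), lost without Kit- K5- replicate 1 (adjusted p = 0.0506).

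Immediate early and stress genes, which can rise during tissue dissociation, were more often lower than higher in Kit- K5+ cells. Of 16 genes 1 rose and 4 fell (median -0.70), against 7.38% higher and 9.1% lower over all genes. With the replicate block 9 of the 16 fell, against 2185 of 17030 over all genes. Dusp1, a phosphatase induced within minutes of stress, stood at 122, 103 and 173 CPM in the Kit- K5+ libraries and 532, 399.8 and 639 CPM in the Kit- K5- libraries (-1.98 ± 0.46, adjusted p = 0.0101), and the heat shock gene Hspa1a at 3.13, 6.04 and 11.3 against 25.1, 19.5 and 37.7 CPM (-2.02 ± 0.43, adjusted p = 0.0068). Socs3 and Dnajb1 fell by 1.69 and 0.90 on the log2 scale and lost their calls in 3 leave-outs each (adjusted p up to 0.0916 and 0.0967). Without Kit- K5+ replicate 1 the difference of Socs3 was -2.51. The gene that rose, Hspb1, stood at 9.25, 3.85 and 3.25 against 0.787, 1.07 and 1.23 CPM, also lost in 3 leave-outs (adjusted p up to 0.0927). Fos stood at 375, 188 and 360.2 against 539, 383 and 734 CPM with an adjusted p of 0.138. The part of handling in the other differences was not tested. Per epithelial count Hspb1 did not pass (0.68, adjusted p = 0.406).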

How the data were processed

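RNA of 12 libraries was sequenced as single reads of 50 nt. Per the labels' protocols, the authors mapped reads to GRCm38 with STAR 2.4.2a and deposited raw counts per gene symbol from featureCounts, version 1.4.6-p3 per the submitters' processing notes, which also name FastQC, Picard 1.129 and GRCm38.p3. The strand setting and annotation release are details not given in the sources used, so overlapping and antisense genes may share reads. Of 43280 symbols, 39469 matched GENCODE M21, 95 of them with several IDs, and positions and exon lengths come from it. Library totals ran from 5589037 to 13724364 counts, whose number limits the precision of low genes.

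Counts of all 12 libraries were fitted with edgeR 4.0.16 (R 4.3.3; quasi-likelihood test, TMM, filterByExpr, 8 residual degrees of freedom, Benjamini-Hochberg adjustment over 17030 genes, threshold 0.05), and the contrast was Kit- K5+ minus Kit- K5-. The common biological coefficient of variation was 0.437. Summed marker levels were compared with exact permutation tests, 3 against 3. Epithelial scaling used the summed counts of 18 genes as library size. Alternatives included limma 3.58.1, DESeq2 1.42.0, other scalings and filters, and each library left out. On simulated counts of 16389 genes the test called 6 unchanged genes. Runs of library numbers (1 to 4, 5 to 8, 9 to 12) hold 1 library of each population, and deviations within them correlated at 0.19, 0.207 and 0.153, so a fit with the run as a block was made; the pairing comes from these values, since the labels do not state it.

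The members and the 29 gene lists (391 genes) were chosen with earlier results of these data known. Named genes are Krt5, Trp63, Itga6, Col3a1, Cdh1 and Kit; the 15 largest folds in each direction that passed 0.05 with no overlap between libraries and a mean of 10 CPM or more on the higher side, predicted genes left out; up to 5 called members of each list by adjusted p, or 2 by level where none passed; and the 10 largest rises outside the lists under epithelial scaling, with the same limits applied on that scale. Other list members and the gene families are named after their values were seen. RefSeq windows were found for 103 of 153 named genes and 269 of 391 list genes. Values of a few list members are not reported here, although the counts over their lists include them.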

Additional observations from a re-analysis of the deposited data

Results flagged for a closer look

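The same contrast, K5+ minus K5-, was also taken in the 6 Kit+ libraries, and the difference between the effects (Kit- minus Kit+, log2) was tested as an interaction in the edgeR fit over all genes. Of 17030 genes tested it passed for 684. Among the 153 named here it passed for 65, with standard errors of 0.285 to 2.47 and adjusted p of 2.99e-05 to 0.0489. Most named genes were chosen by their difference in Kit- cells, which is a term of this interaction. The number of named genes that passed is therefore no separate result. Kit+ K5- replicate 1 stood apart in blood transcripts, with sums of 584 CPM for macrophage and leukocyte genes and 4959 CPM for mast cell genes, and the part of that library in these differences was not tested.

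Among the named epithelial genes that passed, the difference was positive, except for Spry4 and Heyl of the FGF and Notch lists, given below. It was 2.32 for Itga6, 2.32 for Itgb4, 2.56 for Lama3, 3.43 for Krt17, 2.65 for Tfap2c and 1.86 for Tfap2a. For desmosome genes it was 2.10 for Dsp, 2.71 for Dsc2, 2.81 for Perp and 2.27 for Dsg2. For general epithelial genes it was 1.58 for Cdh1, 1.78 for Epcam, 1.90 for Esrp1, 1.72 for Grhl2 and 2.40 for Spint2, and for junction genes 2.51 for Cldn8 and 2.03 for Pard6b. For ductal and end bud genes it was 2.34 for Tfcp2l1, 3.21 for Krt23, 1.83 for Elf3, 1.47 for Sox9 and 1.90 for Etv4. It was 4.24, 3.75 and 3.85 for Dcpp1, Dcpp2 and Dcpp3, 3.75 for Chrm3, 2.40 for Rnf43 and 1.23 for Dusp6. For genes outside the lists it was 5.03 for Lrp2, 2.97 for Adcy8, 3.47 for Vwa2 and 2.63 for Ntng1. Basal genes did not all pass this interaction test. Krt5 (1.07, adjusted p = 0.689) and Trp63 (2.60, adjusted p = 0.211) did not. Neither did Krt15 (1.86, adjusted p = 0.294), Col17a1 (2.23, adjusted p = 0.133) or Itga3 (1.69, adjusted p = 0.122).

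Among the named genes of mesenchyme that passed, the difference was negative. It was -5.84 for Col3a1, -5.42 for Col1a2, -4.98 for Col5a2, -5.14 for Col6a3, -5.65 for Dcn and -7.49 for Kera. It was -4.15 for Prrx1, -4.64 for Osr2, -5.70 for Barx1, -4.12 for Zeb1, -2.24 for Tcf4 and -5.88 for Tbx2. For signals and related genes it was -5.37 for Fgf10, -4.68 for Igf1, -3.79 for Cxcl12 and -4.77 for Aldh1a2. For basement membrane genes it was -5.53 for Nid2, -4.35 for Nid1 and -3.69 for Lama2. For Spry4 of the FGF list and Heyl of the Notch list, which are not lists of mesenchyme genes, it was -2.57 and -4.05. For pericyte and globin genes it was -6.05 for Abcc9, -3.48 for Cspg4, -4.50 for Hbb-bs, -5.27 for Hbb-bt and -11.38 for Hbb-y. For further genes near 0 in Kit- K5+ libraries it was -9.21 for Cpa1, -7.96 for C1qtnf2, -7.28 for Tmem132e, -6.98 for Agtr1a, -6.05 for C1s1, -5.70 for Palm3 and -5.57 for Tspan11, fitted values that depend on the prior count and give no bound. The value of Hbb-y gives no bound either. Hbb-y stood at 0, 0 and 4.91 CPM in Kit+ K5+ and 0.106, 0 and 0 CPM in Kit+ K5- libraries. Its K5 effect of 4.92 in Kit+ cells thus came from Kit+ K5+ replicate 3.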

How the results depend on the processing

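The counts of higher and lower genes stayed within 1.5 times of 1256 and 1550 with RLE or upper-quartile scaling, DESeq2, limma-voom, other count filters, only the Kit- libraries, thinning to the smallest library, mitochondrial genes left out, and the replicate block on runs (1872 and 2185). They moved to 127 and 11204 with epithelial scaling, to 174 and 8400 with its geometric-mean form and to 213 and 12011 with epithelial scaling and the replicate block on runs, the latter 2 chosen after the data were seen. With each library left out in turn they were 495 to 998 and 867 to 1309, and without libraries 1 to 4, 5 to 8 and 9 to 12 they were 699, 145 and 666 higher and 992, 403 and 1044 lower. These last fits have fewer libraries. Of 147 called named genes, 103 passed whichever 1 library was left out. The fitted value of 63 moved by over 1.5 times in at least 1 leave-out, 39 of them without Kit- K5+ replicate 1. The replicate block changed the call of Krt5 and Tagln and of no other named gene. DESeq2 turned no sign and limma-voom ended 16 named calls. The depth limits genes near 1 CPM, where 1 library holds few counts.

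Signs reversed only with epithelial scaling, which adds about the same shift to every gene. Log2 differences with epithelial scaling, and with the block added, were -1.10 and -1.11 for Kit, -0.13 and -0.13 for Pard6b, -0.12 and -0.078 for Tjp3, -0.16 and -0.12 for Sox9, -0.24 and -0.19 for Etv4, -0.30 and -0.37 for Hey1, -0.12 and -0.10 for Chrm1 and -0.17 and -0.073 for Agrn, and -0.088 for Fgfr1 with epithelial scaling alone. With epithelial scaling, its geometric-mean form and the block they were -0.84, -0.46 and -0.84 for Prom1, -0.35, -0.032 and -0.29 for Znrf3, -0.37, -0.015 and -0.48 for Wls, -0.69, -0.36 and -0.69 for Erbb3, -0.48, -0.13 and -0.53 for Egfr, -0.61, -0.28 and -0.58 for Dusp6, -0.35, -0.0084 and -0.31 for Kif23, -0.36, -0.015 and -0.37 for Ect2, -0.81, -0.46 and -0.85 for Prc1, -0.52, -0.19 and -0.47 for Nusap1, and -0.57, -0.24 and -0.59 for Ccnb1.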

Other observations

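Gene families were also counted, chosen after their values were seen, and they include list members already described, such as Col3a1, Itga6 and Itgb4. Collagens, integrins, forkhead factors, interferon-induced genes and ribosomal proteins had members called higher and members called lower. Protocadherins and MHC class II genes had none called higher. Their counts stand beside 7.38% higher and 9.1% lower over all genes. Of 44 tested collagen genes, 8 were higher and 16 lower in Kit- K5+ cells (25 lower and none higher per epithelial count, where 65.8% of all genes were lower). Col7a1, the anchoring fibril collagen beneath hemidesmosomes, stood at 89.5, 53.2 and 22.6 CPM in the Kit- K5+ libraries and 8.2, 12 and 11.9 CPM in the Kit- K5- libraries, with a log2 difference of 2.37 (adjusted p = 0.00305). The collagen IX genes Col9a1 and Col9a3, better known from cartilage, stood at 223, 205 and 64.1 against 8.53, 33.6 and 29 CPM (2.80 ± 0.63, adjusted p = 0.00889) and 498, 277 and 141 against 21.6, 61.2 and 53.7 CPM (2.75 ± 0.45, adjusted p = 0.00123). The collagens that were lower included collagen VI chains, with -5.47 for Col6a1 and -5.66 for Col6a2.

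Of 29 integrin genes, 6 were higher and 7 lower. Per epithelial count 2 were higher (Itga6 and Itgb4) and 17 lower, so Itgb6 and Itga2 were not called higher there. Itgb6, the partner of αv in epithelia, stood at 13.8, 23.8 and 18 CPM in the Kit- K5+ libraries and 1.44, 2.83 and 4.29 CPM in the Kit- K5- libraries (2.70 ± 0.46, adjusted p = 0.00153), and Itga2, a collagen receptor chain, at 31.4, 13.3 and 6.31 against 4.98, 5.67 and 5 CPM (1.71 ± 0.52, adjusted p = 0.0386). The lower ones included Itgam and Itgb2 of leukocytes, with log2 differences of -3.24 and -4.84, and Itga1 of mesenchyme and vessels, with -3.64. Forkhead factors gave 5 higher and 2 lower of 23, among them Foxa1 at 133, 136 and 112 against 36.1, 24.9 and 39.6 CPM (1.92 ± 0.32, adjusted p = 0.00135) and Foxp1 at 451, 464 and 503 against 94.5, 119 and 197 CPM (1.79 ± 0.26, adjusted p = 0.000524). Of 44 protocadherins none was higher and 7 were lower, and of 4 MHC class II genes 3 were lower. Interferon-induced genes gave 1 higher and 4 lower of 12, and the higher one, Ifitm3, stood at 664, 520.2 and 373 CPM in the Kit- K5+ libraries and 98.4, 106 and 117 CPM in the Kit- K5- libraries (2.28 ± 0.46, adjusted p = 0.00488), against lower values for Ifitm1 (-3.24) and Ifitm2 (-0.78). Per epithelial count none was higher among forkhead, protocadherin, MHC class II and interferon-induced genes, and 13, 42, 3 and 8 were lower. Foxa1, Foxp1 and Ifitm3 were therefore not called higher on that scale. Ribosomal proteins gave 7 higher and 1 lower of 77, beside 7.38% higher over all genes, and none higher and 58 lower per epithelial count, where 65.8% of all genes were lower.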
